A study of Mus musculus with 12 samples.

Results

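Of the 32867 genes in the table of retina transcripts, 6 are described here: Cyp4f13, Ahnak2, Bri3bp, 5430419D17Rik, A330023F24Rik and A930033H14Rik. They were picked by name for their change in the Prph rd2 retina or for lying on the chromosome of Prph2, so their differences between Prph rd2 and C3H are a description and carry no test. The 12 libraries were made from whole retina of C3H mice with wild-type alleles and of mice of the lines Pde6b rd1, Pde6b rd10 and Prph rd2, 3 samples each, and the study asked which expression changes are shared by the models when photoreceptor death is at its peak. The Pde6b rd1 samples were taken at postnatal day 13, Pde6b rd10 at day 23 and Prph rd2 at day 29, and the C3H group holds 1 sample of each of these days. The methods place rd1 and rd2 on the C3H background and rd10 on C57Bl6/J, whereas the labels give C57BL6/J for rd2, and animals of either sex were used. The mutation of a model, its day and its background cannot be told apart, and where nothing says that samples came from separate animals the p-values measure only the spread between these samples. Whole retina was sequenced, so fewer cells of a type and less RNA per cell cannot be told apart.

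Rods die in each model because of a rod gene. Pde6b encodes a subunit of the phosphodiesterase that hydrolyses cGMP in the light response, and both Pde6b alleles impair that enzyme. Prph2 encodes peripherin, a membrane protein that shapes the disc rims of photoreceptor outer segments, and the Prph rd2 retina forms no outer segments. The 6 genes share no pathway. Cyp4f13 encodes an enzyme of the cytochrome P450 superfamily, of the branch that oxidises fatty acids and eicosanoids. Ahnak2 encodes a very large scaffold protein related to AHNAK, and Bri3bp a membrane protein named for binding BRI3. The transcript A330023F24Rik is a long RNA whose annotated span carries the hairpins of 2 microRNAs of the miR-29 family, and RefSeq lists 5430419D17Rik under the symbol Cdcp3.

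The sequences shown are the start regions of Cyp4f13 and 5430419D17Rik, the members for which Prph rd2 stood apart from each of the other 3 groups in opposite directions, and the microRNAs that lie inside A330023F24Rik. The start regions are the 250 bases before the RefSeq start of transcription, read 5′ to 3′ on the strand of the gene from GRCm38.p6, for Cyp4f13 at chr17:32947362-32947611 on the minus strand and for 5430419D17Rik at chr7:131174152-131174401 on the plus strand. Capitals mark matches, on either strand, to the TATA box TATAAA, the box spelled CCAAT or the GC box GGGCGG.
Cyp4f13: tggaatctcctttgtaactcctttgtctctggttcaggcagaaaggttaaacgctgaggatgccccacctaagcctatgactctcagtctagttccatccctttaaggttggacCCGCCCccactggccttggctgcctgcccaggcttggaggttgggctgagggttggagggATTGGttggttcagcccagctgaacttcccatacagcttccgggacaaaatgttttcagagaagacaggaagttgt
5430419D17Rik: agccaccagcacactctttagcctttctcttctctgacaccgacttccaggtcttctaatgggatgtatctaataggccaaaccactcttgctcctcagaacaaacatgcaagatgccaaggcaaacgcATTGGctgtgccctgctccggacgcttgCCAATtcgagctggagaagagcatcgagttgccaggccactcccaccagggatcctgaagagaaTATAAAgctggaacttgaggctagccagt
The 5430419D17Rik region held TATAAA 29 bases before the start and CCAAT on opposite strands at 121 and 93 bases. In the Cyp4f13 region, CCAAT lay on the reverse strand 76 bases and GGGCGG on the reverse strand 136 bases before the start. Among 32851 start regions of the same length, 12.4% held TATAAA, 33.8% CCAAT and 32.7% GGGCGG. Of the 6 members, 5430419D17Rik held TATAAA, both it and Cyp4f13 held CCAAT, and Cyp4f13, Bri3bp and A930033H14Rik held GGGCGG. None of the 6 regions held TAATCC, the letters that CRX and OTX2 bind, which were present in 6.25% of all regions, nor TGACGTCA (1.55%) nor TGACTCA (4.46%). The A930033H14Rik region was the richest in G and C of the 6, at 81.2% with 40 CpG dinucleotides, against a median of 52.4% and 6 CpG over all regions. Bri3bp had 67.2% and 20 CpG, Ahnak2 65.2% and 10, A330023F24Rik 54.8% and 7, Cyp4f13 52.8% and 3, and 5430419D17Rik 51.6% and 6. For A330023F24Rik (chr1:195017149-195017398) and Ahnak2 (chr12:112795743-112795992) the region before the RefSeq start lies inside the annotated span of the gene given below. The values of these regions thus describe sequence within the annotated gene. The Cyp4f13 region lies partly inside its gene, whose annotated span reaches chr17:32947402.

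The microRNAs are given as mature RNA from RefSeq with the seed, bases 2 to 8, in capitals.
mmu-miR-29b-3p: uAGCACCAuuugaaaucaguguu
mmu-miR-29c-3p: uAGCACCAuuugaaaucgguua
They share the seed AGCACCA, as does mmu-miR-29a-3p, which is encoded on chromosome 6 together with a second copy of mmu-miR-29b-3p. The hairpins Mir29b-2 (chr1:195037040-195037120) and Mir29c (chr1:195037547-195037634) lie 784 and 270 bp before the annotated end of A330023F24Rik on its strand, inside an exon of 1 of its 4 annotated transcripts. Mature microRNAs were not analysed here, so that values for A330023F24Rik are values of the host RNA.

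The libraries held 17049495 to 24755890 counted reads each. Rod markers were high in every library: 6 of them, among them the transducin gene Gnat1, summed to 2773 to 2919 FPKM in C3H, 2113 to 2268 in Prph rd2, 2212 to 2371 in Pde6b rd10 and 1453 to 1489 in Pde6b rd1, and none was at 0. FPKM divides a count by the length of the gene and by the reads counted in the sample, so that levels of different genes can be compared. Markers of cornea and conjunctiva summed to between 0.0218 and 0.30 FPKM. Other non-neural markers were higher: those of pigment epithelium summed to 12.3 to 13.9 FPKM in Pde6b rd1 and 21.8 to 23.7 in the other groups. Muscle markers summed to 2.21 to 3.26 FPKM. Lens markers ranged from 0 to 0.117 FPKM in Pde6b rd1 and from 1.33 to 1.94 in Pde6b rd10. Prph2 itself, the gene mutated in rd2, measured 924 ± 46.4 FPKM in C3H, 453 ± 30.5 in Prph rd2, 548 ± 17.5 in Pde6b rd1 and 686 ± 39.2 in Pde6b rd10 (mean ± SD, n = 3 in each group). Its lowest values were in Prph rd2, without overlap with the other groups, but it was also called lower in Pde6b rd1.

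All 6 members passed the filter on low counts in every comparison. A gene was called where edgeR's quasi-likelihood test gave an unadjusted p under 0.05 and a change of at least 1.5-fold, the thresholds of the study. In Prph rd2 against C3H all 6 were called by construction, 4 higher and 2 lower, where 2.68% of the genes tested were called higher and 1.89% lower. That background rests partly on 1 library: it is 850 genes with all samples and 1435 without Prph rd2 replicate 2. Against the same C3H samples, Pde6b rd1 had 2 members higher and 2 lower (8.98% and 6.03% of genes), and Pde6b rd10 had 4 higher and 1 lower (15.9% and 8.08%). Because the C3H samples are shared with the choosing comparison, the p-values of the members in these tests, here and below, are not independent of the choice. The contrast of Pde6b rd10 and Pde6b rd1 sets aside the means of the choosing comparison, although its spread and scaling come from the fit of all 12 samples. In it 3 members were higher and 0 lower (17.6% and 11.2%), and the fit of the 6 Pde6b samples alone gave the same calls for the members. Against Pde6b rd1, Prph rd2 had 2 members higher, 5430419D17Rik and A330023F24Rik, and Cyp4f13 lower (8.21% and 8.66%). Against Pde6b rd10 it had 5430419D17Rik higher, and Cyp4f13 and Ahnak2 lower (6.16% and 13.5%).

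Switching in Prph rd2 alone described 1 of the 6 genes. Among the 17850 genes tested in every comparison, 45 (0.252%) were called the same way in Prph rd2 against each of the other 3 groups while neither Pde6b model was called against C3H, and Cyp4f13 was the member among them. Without the condition on the Pde6b models there were 109 such genes (0.611%), and 5430419D17Rik joined Cyp4f13. The 3 members Ahnak2, Bri3bp and A930033H14Rik were called in the same direction in all 3 models, a pattern held by 194 genes (1.09%). A330023F24Rik was high in Prph rd2 and Pde6b rd10 and low in Pde6b rd1 and C3H. For 5 of the 6 members, Ahnak2 being the exception, the 3 Prph rd2 samples lay outside the range of the other 9, as they did for 6.31% of genes; these counts use the contrast that chose the members and nothing is read from them.

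**Figure D1:**
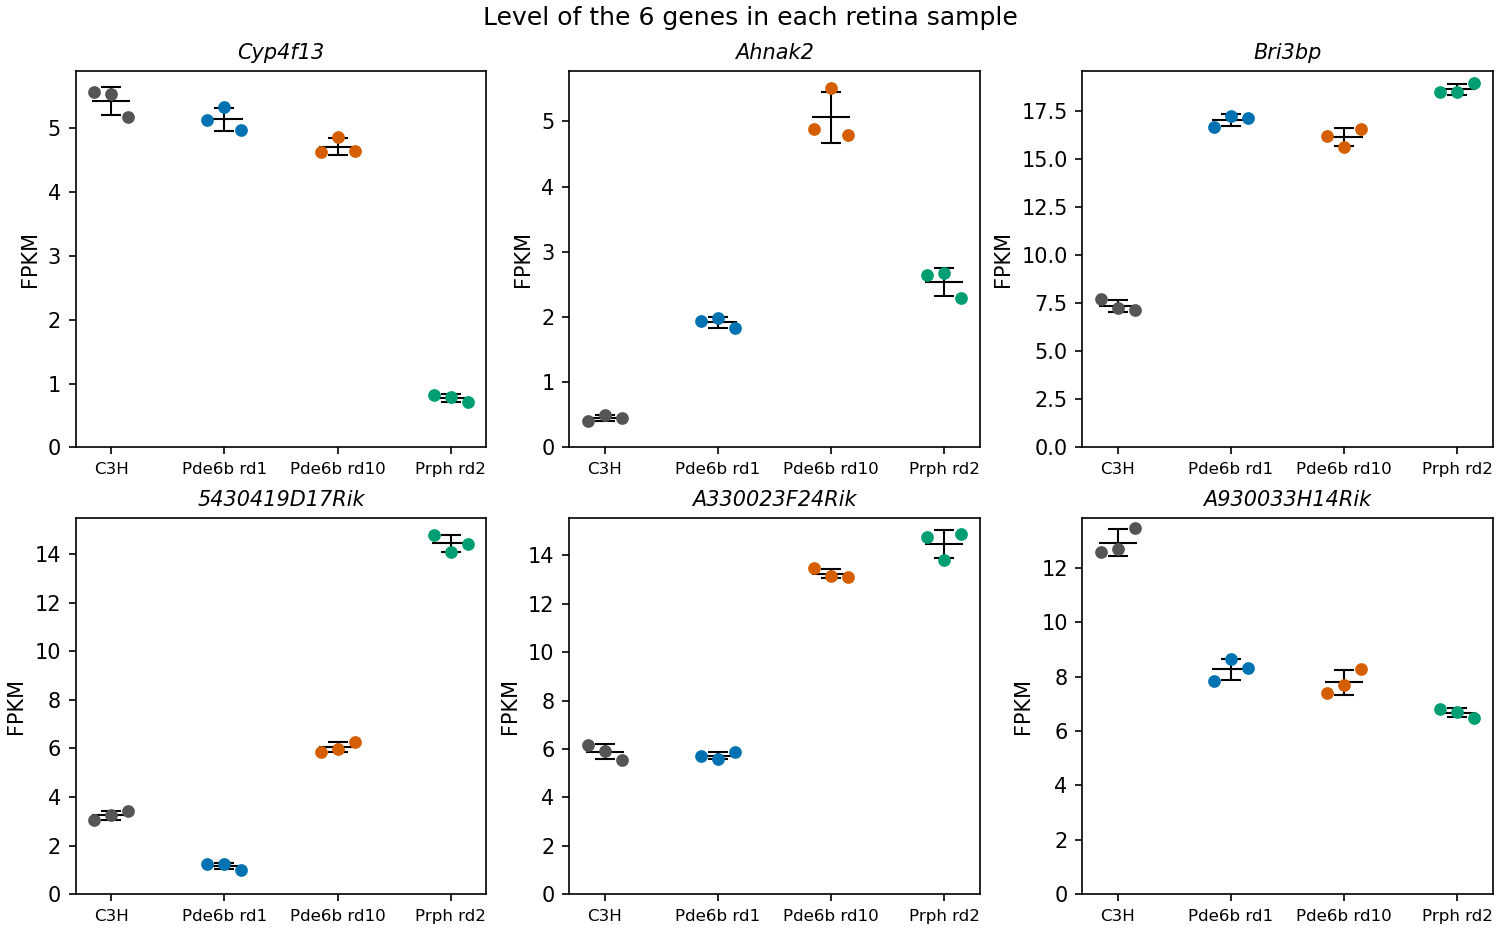
FPKM of each of the 6 genes in the 12 retina samples. Points are samples (in each group replicates 1 to 3 from left to right), the bar is the mean and the whiskers the SD (n = 3), and the vertical axes start at 0. Cyp4f13 is low in the Prph rd2 samples only, 5430419D17Rik takes a different level in each group, and Bri3bp and A930033H14Rik separate C3H from the 3 models.

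Cyp4f13 (ENSMUSG00000024055, chr17:32924688-32947402, minus strand, GRCm38, protein coding) was the member that was low in Prph rd2 and within 1.20-fold of C3H in the other models. Its counts were 491, 590 and 455 in C3H, 497, 403 and 425 in Pde6b rd1, 508, 404 and 412 in Pde6b rd10, and 86, 84 and 76 in Prph rd2. No Prph rd2 sample came near the other 9, whose lowest was 403 reads. Per length the levels were 0.772 ± 0.0585 FPKM in Prph rd2, then 4.71 ± 0.133 in Pde6b rd10, followed by 5.14 ± 0.178 in Pde6b rd1 and 5.42 ± 0.219 in C3H, and among neighbours in this order only the last 2 overlapped. Prph rd2 was 7.18-fold below C3H (log2 fold change -2.84, SE 0.10), 6.36-fold below Pde6b rd1 (log2 -2.67, SE 0.09) and 6.01-fold below Pde6b rd10 (log2 -2.59, SE 0.09). Pde6b rd1 differed from C3H by -0.15 (SE 0.06) on the log2 scale, with an edgeR adjusted p of 0.0577, and Pde6b rd10 by -0.26 (SE 0.07, edgeR adjusted p = 0.00308), less than 1.5-fold. Between Pde6b rd10 and Pde6b rd1, the log2 difference was -0.08 with a 95% interval of -0.21 to 0.05 (edgeR adjusted p = 0.312 in the fit of all 12 samples and 0.312 in that of the 6 Pde6b samples).

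Cyp4f13 lies 13.99 Mb before Prph2 on chromosome 17. In Prph rd2 against C3H, 32 of the 235 tested genes that start 10 to 20 Mb before Prph2 were called (13.6%), and 12 of 81 (14.8%) in the 10 Mb next to it on that side. On the other side the counts were 6 of 85 (7.06%) within 10 Mb, 0 of 47 from 10 to 20 Mb and 8 of 61 (13.1%) from 30 to 40 Mb. The remaining windows of 10 Mb had between 1.72% and 4.08%. These shares are for Prph rd2 only. Some genes called 10 to 20 Mb before Prph2 had higher values still in Pde6b rd10, such as H2-K1 (log2 2.04 in Prph rd2, 6.23 in Pde6b rd10) and C4b (3.01, 7.95). Others did not move with it, such as Hspa1a (-1.91, 0.36). Of the 45 genes with the Prph rd2 pattern of Cyp4f13, 10 lie on this chromosome, which carried 808 of the 17850 genes tested. Distance from Prph2, the mutation and a difference of background between lines cannot be told apart in these samples. Whether reads of each background aligned equally well to GRCm38 was not tested.

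**Figure D2:**
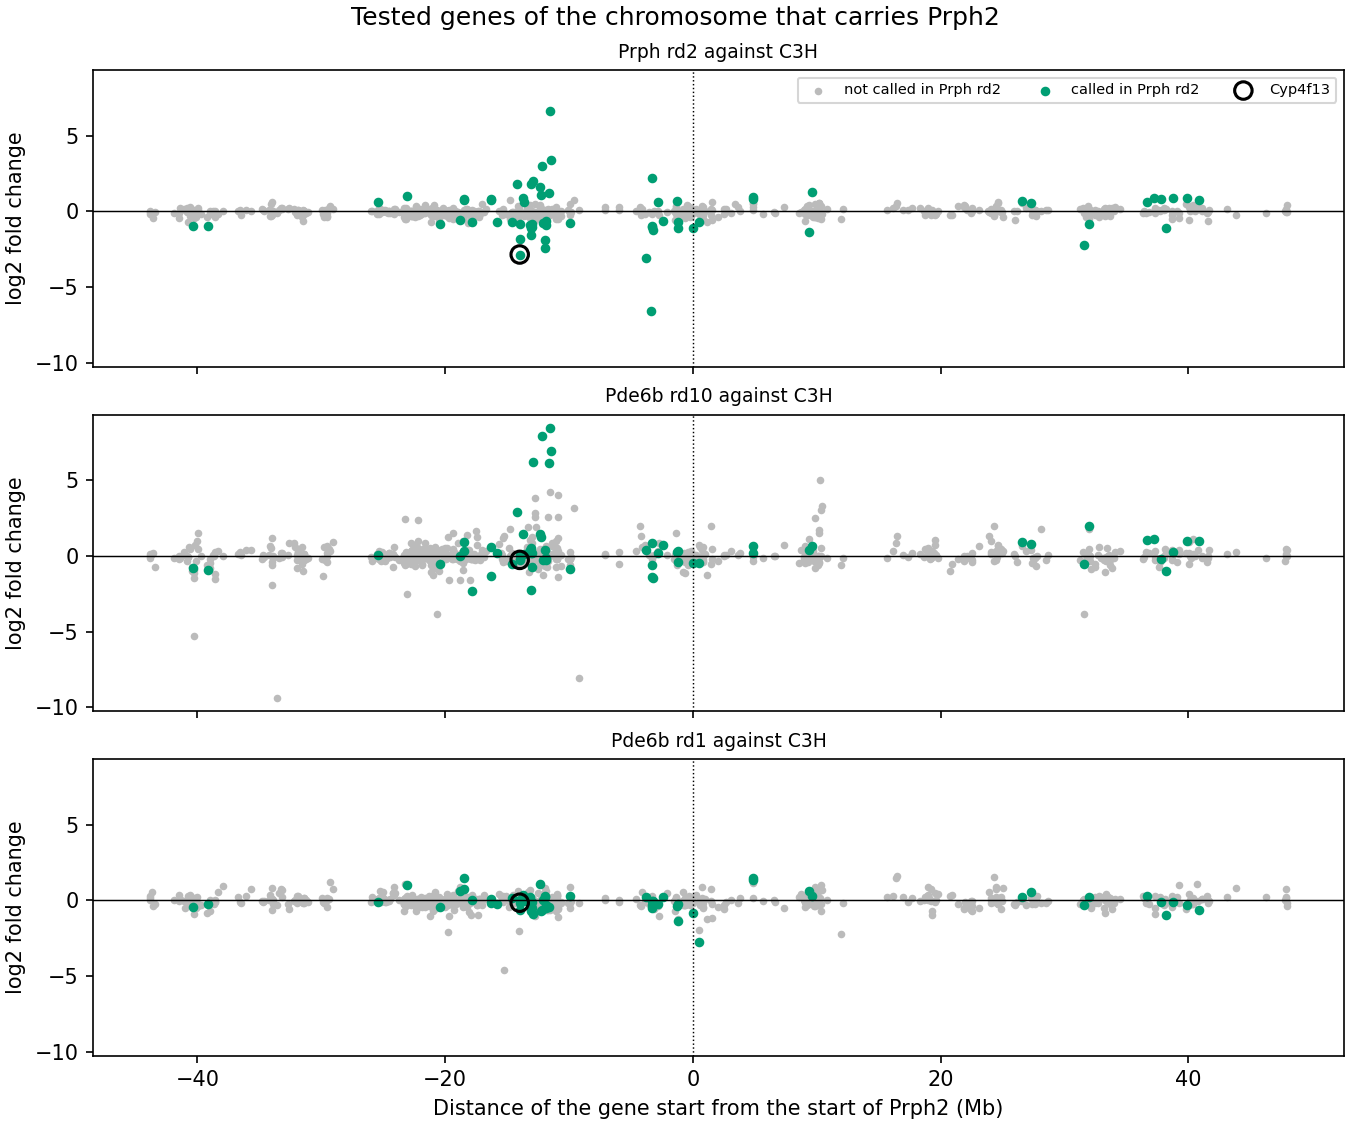
Tested genes of chromosome 17 by the distance of their start from the start of Prph2 in Mb (horizontal axis) and their log2 fold change over C3H (vertical axis) in Prph rd2, Pde6b rd10 and Pde6b rd1. Green points are genes called in Prph rd2, drawn in the same colour in all 3 panels, and the ring marks Cyp4f13, which is at -2.84 in Prph rd2, -0.26 in Pde6b rd10 and -0.15 in Pde6b rd1.

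Around Cyp4f13, 2 of the 10 nearest tested genes were called in Prph rd2 against C3H, both lower and both on the same side. The pseudogene Cyp4f41-ps fell by 1.83 (SE 0.25, edgeR adjusted p = 0.000287) and the zinc finger gene Zfp472 by 0.80 (SE 0.07, edgeR adjusted p = 2.71e-06) on the log2 scale. Zfp472 was not called in Pde6b rd1 (0.03, SE 0.06) or Pde6b rd10 (-0.19, SE 0.07). Cyp4f41-ps was called lower in Pde6b rd1 (-0.65, SE 0.22), less than in Prph rd2 but in the same direction. Reads shared with relatives were a small concern for Cyp4f13 itself: 0.0806% of its 75-base stretches also occur in another gene, Cyp4f15.

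The 9 other genes of the Cyp4f family include further fatty acid hydroxylases and the pseudogene. In Prph rd2 against C3H 5 of them were tested, 1 was called higher and 1 lower, with a median log2 fold change of -0.17 against -0.00125 over all genes. The higher one, Cyp4f15, measured 0.0585 ± 0.0551 FPKM in C3H and 0.232 ± 0.0352 in Prph rd2 and missed adjustment (edgeR adjusted p = 0.0645). The family members with the highest levels beside Cyp4f13 did not pass the test: Cyp4f17 had 5.33 ± 0.489 FPKM in C3H and 4.85 ± 0.359 in Prph rd2, and Cyp4f16 3.23 ± 0.302 and 3.26 ± 0.253. Summed over the family with Cyp4f13, the level was 15.5 to 16.8 FPKM in C3H and 9.89 to 10.6 in Prph rd2. Cyp4f13 alone went from a mean of 5.42 to 0.772 FPKM, so the lower sum partly restates how this member was chosen. In Pde6b rd1 4 were tested and 2 were lower, Cyp4f14 by -2.06 (SE 0.32) and Cyp4f41-ps. In Pde6b rd10 6 were tested and 2 were higher: Cyp4f15 by 2.91 (SE 0.48) and Cyp4f18, which lay between 0 and 0.0272 FPKM in C3H and between 1.35 and 1.56 in Pde6b rd10. Of the other omega-hydroxylases and the partners of cytochrome P450 enzymes, among them Por, Adh5 and Aldh3a2, 7 were tested. None was called in Prph rd2 or Pde6b rd1 by edgeR, while Cyp4v3 was called higher in Pde6b rd10 (1.01, SE 0.09, edgeR adjusted p = 1.2e-08).

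5430419D17Rik (ENSMUSG00000006204, chr7:131174402-131306451, plus strand) took 4 separate levels. Its counts were 520, 673 and 581 in C3H, 236, 179 and 167 in Pde6b rd1, 1245, 959 and 1075 in Pde6b rd10, and 3000, 2889 and 2997 in Prph rd2. No 2 groups overlapped in FPKM: the level was 14.4 ± 0.353 in Prph rd2, 6.04 ± 0.208 in Pde6b rd10, 3.25 ± 0.183 in C3H and 1.17 ± 0.135 in Pde6b rd1. Prph rd2 was 4.35-fold above C3H (log2 2.12, SE 0.06), 2.42-fold above Pde6b rd10 and 12.9-fold above Pde6b rd1. The direction differed between the models: against C3H, Pde6b rd1 was lower by -1.55 on the log2 scale (SE 0.08, edgeR adjusted p = 2.3e-13) and Pde6b rd10 higher by 0.84 (SE 0.06, edgeR adjusted p = 1.82e-10). The level in Pde6b rd10 was 5.33-fold that in Pde6b rd1 (log2 2.41, SE 0.07, edgeR adjusted p = 3.01e-16), and the fit of these 6 samples alone, which leaves out the choosing samples, gave 2.41 as well (SE 0.08, edgeR adjusted p = 6.49e-14). Among the models the level followed the order of the sampling days, while within C3H the samples of days 13, 23 and 29 measured 3.06, 3.27 and 3.42 FPKM, 1 sample a day.

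The annotated span of 5430419D17Rik overlaps that of the receptor gene Fgfr2 on the opposite strand, which had 38 to 156 reads in these samples. None of its 10 nearest tested genes was called by edgeR in Prph rd2 or in Pde6b rd1, and in Pde6b rd10 2 were higher, the serine protease gene Htra1 by 1.06 (SE 0.05) and Gm44624 by 1.00 (SE 0.41). No 75-base stretch of its transcripts occurs in another annotated gene.

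A330023F24Rik (ENSMUSG00000096929, chr1:194976375-195037904, plus strand, annotated as a processed transcript) separated Prph rd2 and Pde6b rd10 from Pde6b rd1 and C3H. Its counts were 1147, 1333 and 1028 in C3H, 1166, 893 and 1059 in Pde6b rd1, 3116, 2305 and 2455 in Pde6b rd10, and 3267, 3090 and 3373 in Prph rd2. The levels of C3H, 5.88 ± 0.317 FPKM, and Pde6b rd1, 5.73 ± 0.14, overlapped, and those of Pde6b rd10, 13.2 ± 0.183, and Prph rd2, 14.5 ± 0.587, were more than 2-fold above both. Prph rd2 was 2.41-fold above C3H (log2 1.27, SE 0.06) and 2.64-fold above Pde6b rd1, but 1.11-fold above Pde6b rd10 (log2 0.15, SE 0.05). Pde6b rd10 was 2.17-fold above C3H (log2 1.12, SE 0.05, edgeR adjusted p = 4.19e-14) and 2.38-fold above Pde6b rd1 (log2 1.25, SE 0.05, edgeR adjusted p = 2.22e-14). Pde6b rd1 differed from C3H by -0.11 (SE 0.05, edgeR adjusted p = 0.0706).

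Several annotated genes lie within or across A330023F24Rik, and whether the counting used strand is not given in the sources used here. On its own strand, Gm37334 (222 to 508 reads) rose by 0.71 (SE 0.08) and 9630010A21Rik (111 to 285 reads) by 0.88 (SE 0.11) in Prph rd2 on the log2 scale. Both were also called higher in Pde6b rd10, by 0.59 and 0.77, and 9630010A21Rik was called higher in Pde6b rd1 as well, by 0.75 (SE 0.11). Of the 10 nearest tested genes of A330023F24Rik, 2 were called higher in Prph rd2, 5 in Pde6b rd1 and 5 in Pde6b rd10, and 0 lower. On the opposite strand, Cd46, a complement regulator whose gene overlaps the end with the miR-29 hairpins, had 110 to 203 reads. Of the 75-base stretches of A330023F24Rik, 14.4% also occur in another gene, mostly in Cd46 as its antisense. The circular RNA table held 1 circle named for a member, from A330023F24Rik at chr1:195021385-195024406, with 2 junction reads in C3H replicate 2 and 0 in the other 11 samples, where 9819 to 25009 junction reads were counted in all. That is below the floor of 3 reads, so no difference was detectable at this depth.

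Of 16 genes known as miR-29 targets, among them collagens, fibrillin, elastin and the DNA demethylases of the Tet family, all were tested and edgeR called 0 in Prph rd2, in which the host RNA was highest. Over all genes tested, 2.68% were called higher and 1.89% lower in Prph rd2. With less than 1.5-fold, Sparc (-0.23, SE 0.04) and Col1a2 (-0.35, SE 0.09) were lower there at an edgeR adjusted p under 0.05. Fbn1 (0.34, SE 0.08) and Tet1 (0.20, SE 0.06) were higher at the same threshold. Over the 16 genes the median log2 fold change was -0.08 in Prph rd2, against -0.00125 over all genes. In Pde6b rd1 2 were lower, Col1a1 by -1.04 (SE 0.21) and Eln by -0.99 (SE 0.07). In Pde6b rd10, where the host RNA was also high, 4 were higher and 1 lower: Fbn1 rose from 1.90 ± 0.10 FPKM in C3H to 8.21 ± 0.104 (log2 2.06, SE 0.05), and Tet3 fell from 41.7 ± 0.393 to 28.6 ± 0.637 (log2 -0.60, SE 0.03). Over the list the median in Pde6b rd10 was -0.04.

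Ahnak2 (ENSMUSG00000072812, chr12:112772194-112802657, minus strand) was the member with the largest change in Pde6b rd10. Its counts were 112, 167 and 126 in C3H, 600, 481 and 499 in Pde6b rd1, 1712, 1462 and 1358 in Pde6b rd10, and 886, 905 and 787 in Prph rd2. The 4 groups did not overlap in FPKM and stood in the order C3H (0.446 ± 0.0461), Pde6b rd1 (1.92 ± 0.0833), Prph rd2 (2.54 ± 0.211) and Pde6b rd10 (5.06 ± 0.393). Against C3H the change was 5.53-fold in Prph rd2 (log2 2.47, SE 0.10), 4.07-fold in Pde6b rd1 (log2 2.02, SE 0.09, edgeR adjusted p = 3.89e-15) and 10.9-fold in Pde6b rd10 (log2 3.44, SE 0.08, edgeR adjusted p = 3.27e-18). Pde6b rd10 exceeded Pde6b rd1 by 2.72-fold (log2 1.44, SE 0.07, edgeR adjusted p = 9.72e-13). Prph rd2 lay between them, 1.38-fold above Pde6b rd1 and 1.97-fold below Pde6b rd10.

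Among the relatives and partners of AHNAK proteins, most calls were in Pde6b rd10. Of 9 genes besides Ahnak2, which include Ahnak, the annexins that bind membranes and the S100 proteins that bind them, 7 were called higher in Pde6b rd10, 0 by edgeR in Pde6b rd1 and 1 in Prph rd2. At an unadjusted p under 0.05 without the fold threshold, Ahnak was lower in Pde6b rd1 (-0.39, SE 0.05) and Myof higher (0.13, SE 0.05). The median log2 fold change of the list was -0.29 in Prph rd2, -0.05 in Pde6b rd1 and 1.08 in Pde6b rd10. Ahnak measured 3.39 ± 0.188 FPKM in C3H, 4.53 ± 0.142 in Prph rd2, 2.72 ± 0.0733 in Pde6b rd1 and 9.95 ± 0.261 in Pde6b rd10, a log2 change of 1.501 (SE 0.05, edgeR adjusted p = 2.68e-16) in Pde6b rd10. Anxa1 rose there by 3.68 (SE 0.13, edgeR adjusted p = 2.8e-15), S100a10 by 1.47 (SE 0.08) and Anxa2 by 1.08 (SE 0.08). In Prph rd2 the gene called was Anxa1 (0.66, SE 0.24), which missed adjustment (edgeR adjusted p = 0.0997), while Ahnak had 0.39 (SE 0.06, edgeR adjusted p = 0.00042), less than 1.5-fold. Also under 1.5-fold, Myof was lower there (-0.23, SE 0.07, edgeR adjusted p = 0.042). Dysf (-0.38, SE 0.13) and Anxa2 (-0.29, SE 0.12) were lower at an unadjusted p under 0.05. The 6 microglia markers summed to 51.4 to 53.9 FPKM in Pde6b rd10, with 5 of 6 called higher, against 18.8 to 19.7 in C3H, 18.9 to 19.7 in Pde6b rd1 and 16.1 to 18.2 in Prph rd2. In Prph rd2, Tmem119 was the marker called, higher by 0.84 (SE 0.22, edgeR adjusted p = 0.0255), and in Pde6b rd1 edgeR called 0 of the 5 tested, with 1, P2ry12, at an unadjusted p under 0.05 (-0.24, SE 0.11). Their part in the values of Ahnak2 and of this group was not tested.

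**Figure D3:**
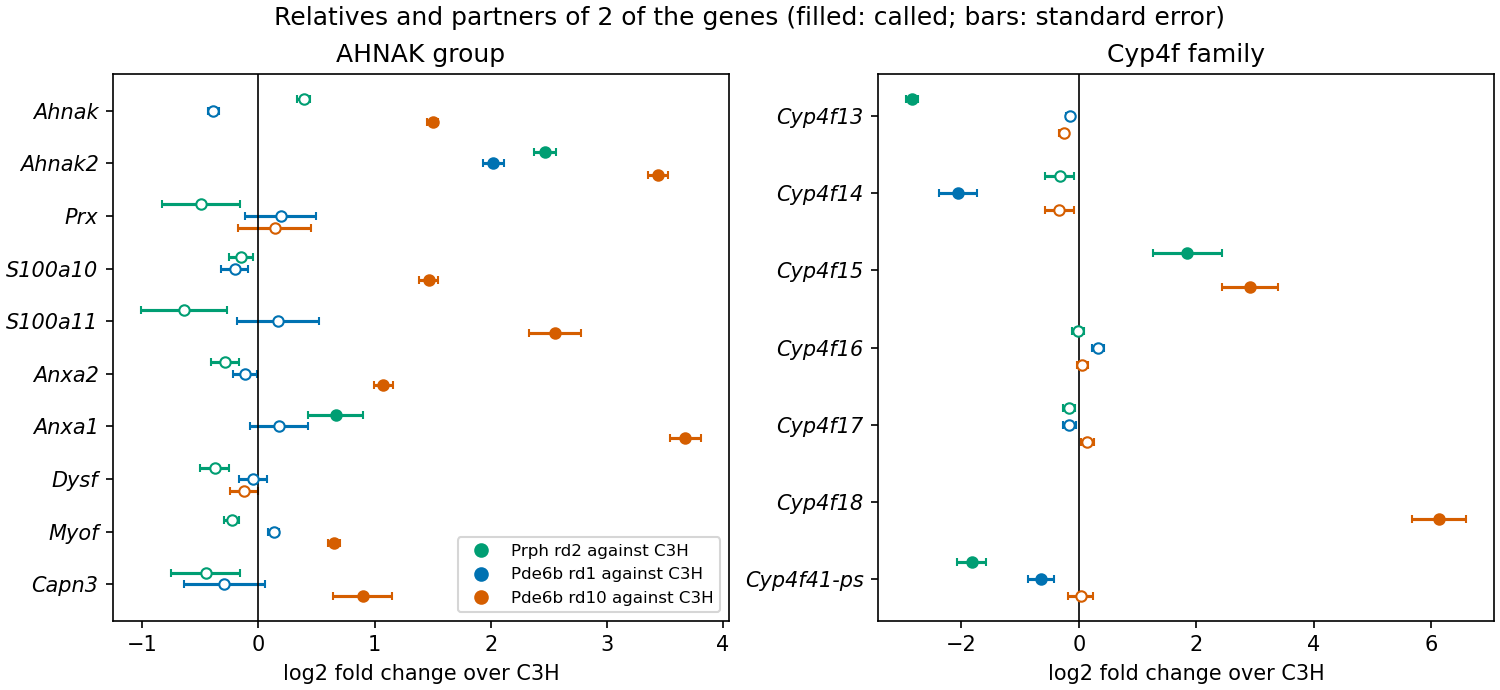
Log2 fold change over C3H, with its standard error, of the AHNAK group (left) and the Cyp4f family (right) in the 3 models. Filled points passed the call at 1.5-fold and an unadjusted p under 0.05; genes without a point in a model were not tested there. Ahnak2 is called higher in all 3 models, 7 of its 9 relatives and partners are in Pde6b rd10 and Anxa1 is in Prph rd2, and Cyp4f13 lies to the left in Prph rd2.

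Bri3bp (ENSMUSG00000037905, chr5:125441568-125460370, plus strand) was 2.11- to 2.47-fold higher in each model. Its counts were 1007, 1144 and 931 in C3H, 2392, 1930 and 2171 in Pde6b rd1, 2636, 1922 and 2176 in Pde6b rd10, and 2870, 2903 and 3021 in Prph rd2. The levels were 7.37 ± 0.306 FPKM in C3H, 18.6 ± 0.291 in Prph rd2, 17.02 ± 0.302 in Pde6b rd1 and 16.1 ± 0.47 in Pde6b rd10, and every model sample was more than 2-fold above the highest C3H sample, 7.72. The change over C3H was 2.47-fold in Prph rd2 (log2 1.31, SE 0.05), 2.19-fold in Pde6b rd1 (log2 1.13, SE 0.04, edgeR adjusted p = 3.04e-16) and 2.11-fold in Pde6b rd10 (log2 1.08, SE 0.05, edgeR adjusted p = 9.93e-14). Pde6b rd10 and Pde6b rd1 differed by -0.03 with a 95% interval of -0.12 to 0.05 (edgeR adjusted p = 0.55). Prph rd2 stood 1.14-fold above Pde6b rd1 and 1.17-fold above Pde6b rd10. None of its 10 nearest tested genes was called by edgeR in Prph rd2 or Pde6b rd1 against C3H, whereas 4 were called in Pde6b rd10, 3 of them higher.

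The gene of the binding partner, Bri3, measured 8.73 ± 1.15 FPKM in C3H, 8.94 ± 1.27 in Prph rd2, 7.49 ± 1.08 in Pde6b rd1 and 10.9 ± 1.63 in Pde6b rd10, and of Bri3, Itm2b and Tmem59 edgeR called 0 in Prph rd2 and 0 in Pde6b rd1. Itm2b was called higher in Pde6b rd10 (0.61, SE 0.04, edgeR adjusted p = 1.05e-11).

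A930033H14Rik (ENSMUSG00000090622, chr10:69209762-69213098, minus strand) was lower in all 3 models. Its counts were 742, 907 and 793 in C3H, 509, 437 and 476 in Pde6b rd1, 543, 428 and 492 in Pde6b rd10, and 479, 475 and 467 in Prph rd2. The lowest C3H level, 12.6 FPKM, was above the highest of the 9 model samples, 8.63. Mean levels were 12.9 ± 0.484 in C3H, 6.66 ± 0.166 in Prph rd2, 8.27 ± 0.394 in Pde6b rd1 and 7.79 ± 0.455 in Pde6b rd10, and the Pde6b groups overlapped. The change over C3H was -0.99 (SE 0.06) in Prph rd2, -0.72 (SE 0.06, edgeR adjusted p = 6.53e-10) in Pde6b rd1 and -0.79 (SE 0.06, edgeR adjusted p = 1.84e-09) in Pde6b rd10 on the log2 scale. Between the Pde6b models the difference was -0.04 with a 95% interval of -0.17 to 0.09 (edgeR adjusted p = 0.623). The gene lies inside the annotated span of Rhobtb1 on the opposite strand, which had 358 to 605 reads. Of the 6 rod markers, 2 were called lower in Prph rd2, 4 in Pde6b rd1 and 3 in Pde6b rd10, and none was called higher by edgeR. Among those not called, Nr2e3 had 0.08 (SE 0.03) in Pde6b rd1 and Pde6a 0.01 (SE 0.03) in Pde6b rd10. Their part in the lower level of A930033H14Rik was not tested.

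**Figure D4:**
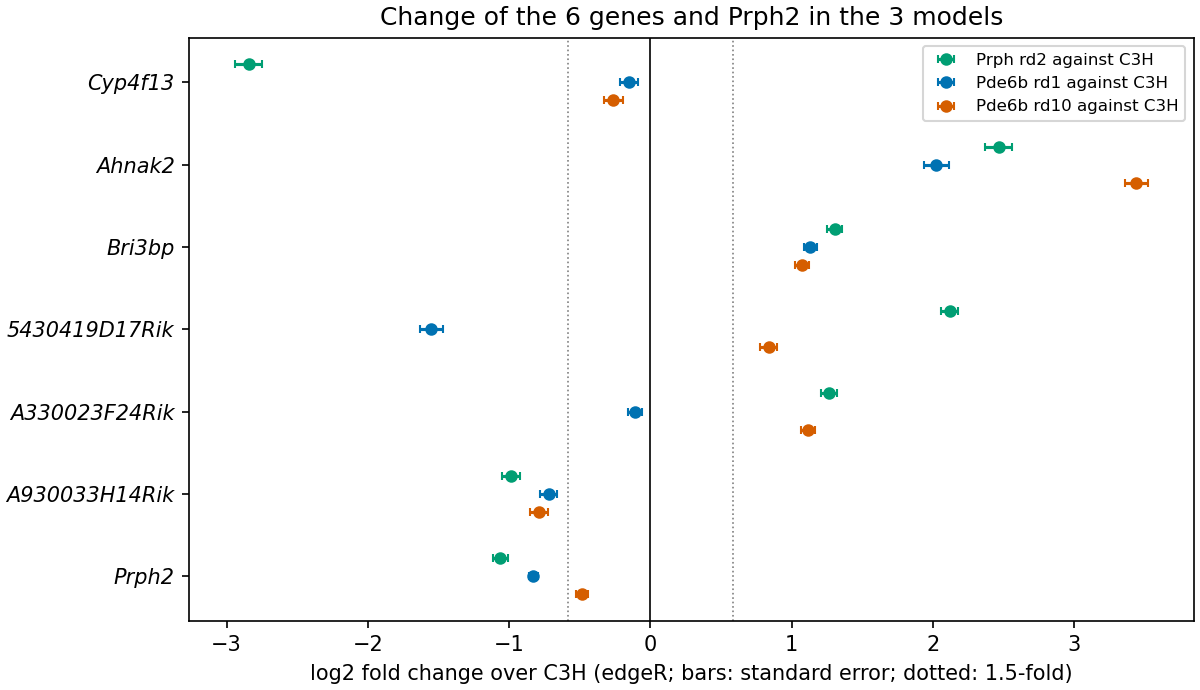
Log2 fold change over C3H of the 6 genes and of Prph2 in Prph rd2, Pde6b rd1 and Pde6b rd10, with standard errors (3 samples against 3; the C3H samples are shared by the 3 comparisons). Dotted lines mark 1.5-fold. Cyp4f13 passes them in Prph rd2 only, 5430419D17Rik lies on opposite sides in Pde6b rd1 (-1.55) and the other models, and Ahnak2, Bri3bp and A930033H14Rik lie on 1 side in all 3.

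Across the 12 samples the members fell into no common profile. On log2(FPKM + 1), Pearson's r was -0.96 between A930033H14Rik and Bri3bp, 0.89 between 5430419D17Rik and A330023F24Rik, -0.83 between 5430419D17Rik and Cyp4f13, and -0.23 between Ahnak2 and Cyp4f13. These values describe 4 group levels more than 12 free points, since samples of a group share genotype and day. Among 14496 genes with a mean of at least 1 FPKM, those most like Cyp4f13 were Vit (r = 0.98), which encodes the extracellular matrix protein vitrin, and the heat shock gene Hspa1a (0.96), both on chromosome 17, and Wdr20 (0.96). Vit went from 4.17 FPKM in C3H to 0.928 in Prph rd2, and Hspa1a from 5.26 to 1.43; Hspa1a has a near-identical neighbour, so its reads may be split. Ahnak2 was most like the stress response transcription factor gene Atf3 (0.97), Btbd9 (0.97) and Nuak2 (0.97), Atf3 having 1.13 FPKM in C3H, 2.95 in Prph rd2, 2.09 in Pde6b rd1 and 5.85 in Pde6b rd10. Bri3bp was most like the long RNA Ftx (0.98), 9630010A21Rik (0.98), which lies inside A330023F24Rik, and the calcium channel gene Ryr2 (0.98). Ftx lies on the X chromosome and had 1.87 FPKM in C3H, 3.02 in Prph rd2, 2.84 in Pde6b rd1 and 2.83 in Pde6b rd10. The part of sex in this likeness was not tested. The nearest to 5430419D17Rik were Sphkap (0.99), the circadian gene Per3 (0.98) and Map7d2 (0.98). A330023F24Rik was followed by Nars (0.97), Glo1 (0.97), the glyoxalase gene, on chromosome 17, and Prickle2 (0.97). For A930033H14Rik they were Camkmt (0.95), also on chromosome 17, Gm48822 (0.94) and Gucd1 (0.94).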

How the data were processed

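Gene values came from 12 retina libraries, grouped by genotype from the labels. The authors aligned reads of directional, ribosomal RNA-depleted libraries to GRCm38, counted them per gene with HTSeq 0.11.2 and deposited the raw counts. They also deposited FPKM values, the counts divided by gene length and counted reads, and circular RNA junction counts, whose TPM values were not used. A strand setting is not given in the sources used here.

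Counts were tested with edgeR 4.0.16 (R 4.3.3; TMM, filterByExpr, quasi-likelihood test), each model against C3H in the 6 samples concerned and the models against each other in a fit of all 12, with Benjamini-Hochberg adjustment over all genes tested. DESeq2 1.42.0 and limma 3.58.1 on log2(FPKM + 1) and log2(FPKM + 0.1) were alternatives. The scripts were tested on simulated data. Intervals are normal intervals at 95%. Positions came from GENCODE vM21, which held 32852 of the 32867 genes, and sequences from RefSeq, in which all 6 members had a start region. The members and the gene lists were chosen with earlier results of these data known. Besides the 6 members and Prph2, the genes named are those of the lists, the 5 tested genes on each side, and the 3 genes with the highest r over the samples. Further genes of chromosome 17 were named after their values were seen. Of lists and neighbours, values are given for called genes among the 4 with the smallest p per comparison, plus some that were not called, chosen after their values were seen. 1 marker of the rod list is not reported here.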

Additional observations from a re-analysis of the deposited data

How the results depend on the processing

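The 36 log2 fold changes of the 6 genes over 6 comparisons gave 504 values under the alternatives (DESeq2, RLE scaling, no filter on low counts, limma on FPKM, an adjusted p as threshold, 1 fit or separate fits, each sample left out). All 504 kept their direction and their side of the threshold. With the adjusted p as threshold the fold changes are those of the main fit, so there only the side could change. Except for Pde6b rd10 against Pde6b rd1, the comparisons contain Prph rd2 or C3H samples that chose the members, so this stability partly follows from the choice. On the log2(FPKM + 1) scale of limma, which compresses low genes, the Prph rd2 change over C3H was -1.86 for Cyp4f13 and 1.29 for Ahnak2. Against the 1 C3H sample of the same day, which has no spread of its own and is taken as values without a test, 18 of 18 kept their direction, with -2.78 for Cyp4f13 and 2.04 for 5430419D17Rik in Prph rd2. Counts over all genes moved more. In Prph rd2 against C3H, 850 genes were called, 1300 without the filter, 166 by limma on log2(FPKM + 1) and 384 with the adjusted p (197 higher, 187 lower). Leaving out 1 sample each gave 745 to 1435 genes, and the highest, without Prph rd2 replicate 2, had 641 higher and 794 lower, against 498 and 352 with all samples. By limma on log2(FPKM + 1) the counts were 1097 rather than 2749 for Pde6b rd1, 2035 rather than 4479 for Pde6b rd10, 2929 rather than 5644 for Pde6b rd10 against Pde6b rd1, 1115 rather than 3308 for Prph rd2 against Pde6b rd1, and 1791 rather than 3862 for Prph rd2 against Pde6b rd10. The cause was not tested. Leaving out 1 sample each gave 2734 to 2861, 4462 to 4740 and 5572 to 5858 genes in the first 3 of these. Same-numbered samples did not deviate together in every pair, with r between -0.07 and 0.07 for Prph rd2 and C3H, so the numbers were not taken as pairs. For replicates 1, 2 and 3, r was -0.104, 0.28 and 0.298 between Prph rd2 and Pde6b rd1. Between Prph rd2 and Pde6b rd10 it was 0.0236, 0.224 and 0.199. Whether replicates of the models share a batch was not tested. With the replicate block 855, 2774, 4434 and 5696 genes were called in Prph rd2, Pde6b rd1 and Pde6b rd10 against C3H and in Pde6b rd10 against Pde6b rd1, and no call of the 6 genes changed. With 3 samples a group, differences well under 1.5-fold, such as those of Cyp4f13 in the Pde6b models, were measured with errors of 0.06 to 0.07 on the log2 scale.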

Other observations

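Other genes of chromosome 17 with the Prph rd2 pattern of Cyp4f13, chosen after their values were seen, moved in either direction. Against C3H, CT486005.1 had a log2 fold change of -3.05, Gm20481 of -2.41, Vit of -2.20, Hspa1a of -1.91 and the mitotic kinesin gene Kifc1 of -1.09, while Lrpprc, which encodes a mitochondrial RNA-binding protein, had 0.83 and the homeobox gene Six2 0.88. Gm20481 starts next to Hspa1a, 11.9 Mb before Prph2, and Vit, Lrpprc and Six2 lie 31.6, 37.8 and 38.8 Mb after it. In Prph rd2 the 2 haemoglobin genes used as blood markers summed to 84.3 to 98.6 FPKM, against 52.8 to 55.8 in C3H.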
